A study of Mus musculus with 12 samples.

Results

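The proteins of the large (60S) ribosomal subunit were examined as a group of mRNAs in 3T3-L1 cells, a mouse embryonic fibroblast line whose preadipocytes turn into adipocytes in culture after hormonal induction. The members were the genes with an Rpl symbol and a plain number (with or without a final a or l) and the stalk genes Rplp0, Rplp1 and Rplp2, while mitochondrial Mrpl genes and pseudogenes were left out. The rule found 48 genes with 72 probes among 18217 named genes, which had 26690 of the 41174 probes on the array. It used names only and no measured value. The symbols Rpl10l, Rpl32l and Rpl6l also fit the pattern in the reference, the last one as a pseudogene, but no probe was assigned to them and they were not analysed here.

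The arrays compared 4 groups with 3 biological replicates each: non-polysomal RNA at 0 h (np0), polysomal RNA at 0 h (p0), non-polysomal RNA at 6 h (np6) and polysomal RNA at 6 h (p6). The 0 h cells were confluent, had received no hormones and had grown in 10% newborn bovine serum. The 6 h cells had received 0.5 mM isobutylmethylxanthine (IBMX), 1 µM dexamethasone and 5 µg/ml insulin in medium with 10% fetal bovine serum, so that the hormones and the change of serum cannot be told apart. No untreated group at 6 h was analysed here, so that the time itself is part of each comparison between 6 h and 0 h. Lysates were spun through sucrose gradients. The non-polysomal pool joined gradient fractions 5 to 7, and the polysomal pool joined fractions 9 to 11. The material was a single cell line, so that the replicates are cultures and not animals.

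Each large subunit carries 1 copy of nearly every member, and the mRNAs of these proteins are known to be produced and translated in step. Most vertebrate ribosomal protein mRNAs start with a C followed by a run of pyrimidines, the 5′ terminal oligopyrimidine (TOP) tract. In resting or starved cells TOP mRNAs are known to lie largely in light, non-polysomal particles, and insulin and serum, through mTORC1 and the RNA-binding protein LARP1, are known to shift them onto polysomes. A few members have tissue-restricted paralogs, among them Rpl3l, known from striated muscle, and Rpl39l and Rpl10l, known from the testis.

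The starts of 10 members are shown because the results turn on these genes: Rpl28, Rpl27a and Rpl14 had the highest M-values, Rpl41, Rpl35a and Rpl39 were the lowest detected ones, Rpl4 and Rpl10 had high M-values without a tract at the listed start, and Rpl3l and Rpl39l are paralogs. Each line holds 15 bases before and 20 bases from the annotated transcript start on the coding strand, taken from RefSeq on build GRCm38.p6. Capitals mark a C followed by at least 4 further C or T bases when it began within 5 bases of the annotated start. A run of pyrimidines that began further upstream, as in Rpl14, is marked only from such a C on. The search was made on the coding strand alone, since a tract belongs to the mRNA.
Rpl28: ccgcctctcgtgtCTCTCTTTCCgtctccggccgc
Rpl27a: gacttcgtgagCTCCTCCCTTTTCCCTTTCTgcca
Rpl14: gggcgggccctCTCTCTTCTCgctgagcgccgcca
Rpl4: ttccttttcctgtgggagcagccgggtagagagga
Rpl10: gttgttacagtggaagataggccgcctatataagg
Rpl39: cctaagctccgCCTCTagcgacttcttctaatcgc
Rpl35a: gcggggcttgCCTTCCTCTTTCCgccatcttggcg
Rpl41: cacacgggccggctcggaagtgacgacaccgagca
Rpl3l: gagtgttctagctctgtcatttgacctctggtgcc
Rpl39l: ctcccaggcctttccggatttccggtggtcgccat
The windows lie at chr7:4792950-4792984 (Rpl28, plus strand), chr7:109519180-109519214 (Rpl27a, plus), chr9:120571502-120571536 (Rpl14, plus), chr9:64173372-64173406 (Rpl4, plus), chrX:74270801-74270835 (Rpl10, plus), chrX:37085203-37085237 (Rpl39, minus), chr16:33056467-33056501 (Rpl35a, plus), chr10:128549149-128549183 (Rpl41, minus), chr17:24727811-24727845 (Rpl3l, plus) and chr16:10170213-10170247 (Rpl39l, plus). Rpl35a and Rpl3l have further listed starts, and the one shown is the start with a tract for Rpl35a and the first listed one for Rpl3l. All windows span the end of the promoter and the first bases of exon 1.

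A promoter entry was found for 36 of the 48 members, and 16 of these (44.4%) had such a tract. Counted from the marked C, the lengths were 5 to 20 bases, and a run that began further upstream was longer. The share was 52.2% among 23 small-subunit genes and 19.7% among all 27025 genes with an entry. It depended on the width of the search, since within 50 bases of the start all 36 members (100%) had such a run, as had 95.7% of the small-subunit genes and 79.7% of all genes. Members without an entry included Rpl3, Rpl8, Rpl21 and Rplp1. The annotated start can lie several bases away from the start used in a cell, and a missing match says only that these letters were not in the window.

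Of the 45018 spots on each array, 1639 were control spots. Intensities had a 75th percentile of 241 to 281 on the non-polysomal and of 426 to 567 on the polysomal arrays, 56.1% to 61.2% of the spots were rated well above background, and 0 spots were saturated on any array. All 9 fibroblast and preadipocyte markers were well above background on every array, among them Col1a1, Col1a2 and Vim. Of 6 adipocyte markers Lep and Cfd were well above background on 0 of the 12 arrays, and the summed signal of the 6 was 18914 to 20786 on the non-polysomal arrays, 42905 to 51431 on the p0 arrays and 87749 to 96806 on the p6 arrays. Of 5 hormone response genes 4 rose in polysomal RNA with an adjusted p below 0.05 and a size above 1, Fkbp5, a glucocorticoid target, by 4.53 on the log2 scale. Of 3 leukocyte markers with a probe, Csf1r alone was well above background on every array. Of the endothelial genes, Pecam1 was well above background on 0 of the 12 arrays and Cdh5 was well above it on the p6 arrays alone (log2 signals of 4.56 to 4.79), and the summed signal of both was 26 to 30 on p6 and 4 to 5 on the other arrays. The part of these few markers in the results was not tested.

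The mRNAs of the large subunit were low in polysomes before induction and rose there within 6 h. The median log2 signal of the 46 genes that were well above background on all 12 arrays was 15.92 to 16.04 on the np0 arrays, 14.47 to 14.66 on the p0 arrays, 16.11 to 16.15 on the np6 arrays and 16.71 to 16.78 on the p6 arrays. Thus, on arrays scaled by the spike-ins, the p0 arrays were the lowest and the p6 arrays the highest, with no overlap between any of the groups. The order of p6 and np6 was not kept by other scalings, as the median fraction difference at 6 h was -0.82 with scaling to the 75th percentile and -0.25 with quantile normalization. All signals and orders of groups given for single genes are on the spike-in scale. The SD between the 3 arrays of a group was 0.070 at the median over these genes and groups and 0.35 at most. In such bulk RNA, fewer cells with an mRNA and less of it per cell cannot be told apart, and a signal is a level per amount of labelled RNA, not per cell.

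**Figure D1:**
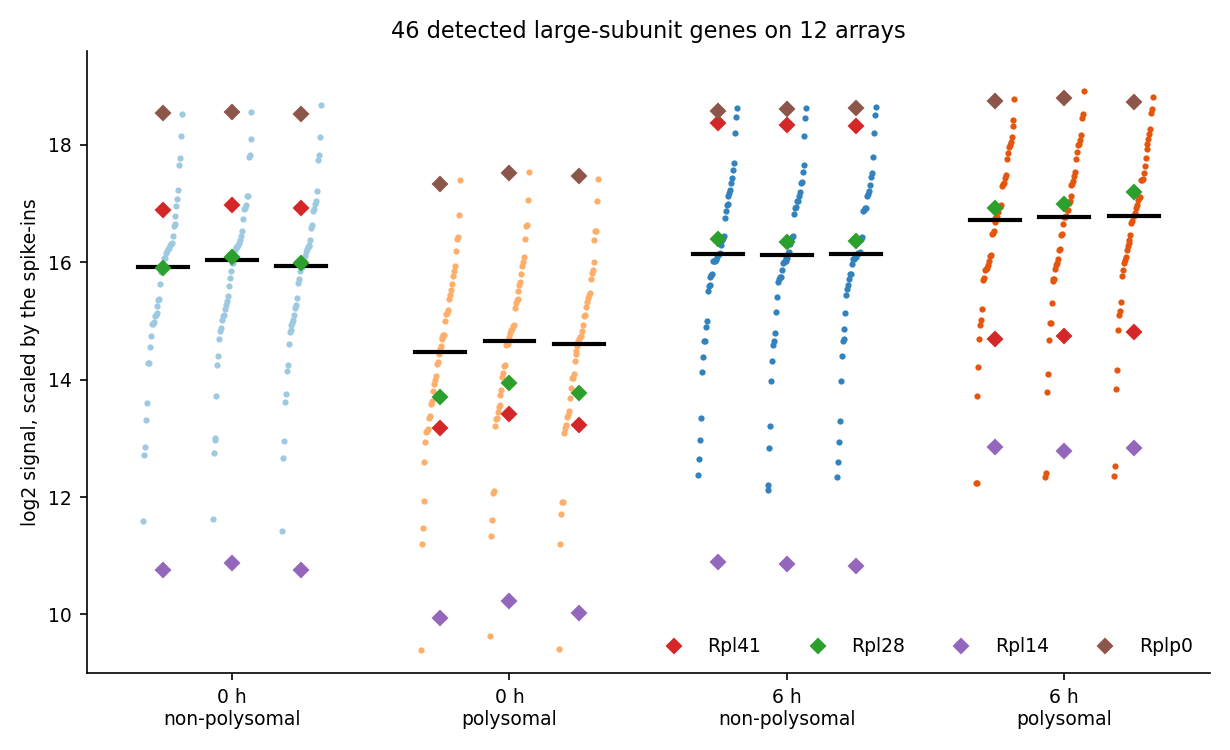
Log2 signal, scaled by the spike-ins, of the 46 detected large-subunit genes on each of the 12 arrays (3 per group). Dots are genes in order of signal, black bars the median of the 46 genes, and diamonds mark Rpl41, Rpl28, Rpl14 and Rplp0. The medians of the p0 arrays (14.47 to 14.66) lie below those of the other groups, and Rpl41 stands above the median on the non-polysomal arrays and below it on the polysomal arrays at both times.

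Differences were tested with limma over all probes, with Benjamini-Hochberg adjustment, and were called at an adjusted p below 0.05 and a size above 1 on the log2 scale, that is above 2-fold. Each gene was represented by its brightest probe. In polysomal RNA 45 of the 48 genes rose from 0 h to 6 h, against 22.3% of all named genes, and 0 fell, against 6.1%. With quantile normalization 21 genes rose, against 3204 of 41173 probes. The median difference was 2.04, and the median over all probes was 0.54. On 47 genes every p6 array lay above every p0 array, which was the case for 58.6% of all named genes. The exception was Rpl21, and the genes without a call were Rpl21, Rpl3l and Rpl39l.

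In non-polysomal RNA the change of the same mRNAs was smaller at the median, with small rises in many of them on the spike-in scale. The calls were 4 rises, of Rpl41, Rpl39, Rpl35a and Rpl22, against 9.03% of all named genes, and 0 falls, against 10.1%. The median difference was 0.34 and that of all probes 0.04. Below the limit of 1, a positive difference had an adjusted p below 0.05 in 20 further genes, against 15.7% of all named genes, and a negative one in 5, against 15.2%, namely Rpl21 (-0.84), Rpl3 (-0.33), Rpl7 (-0.32), Rpl8 (-0.29) and Rpl6 (-0.24). On 30 genes every np6 array lay above every np0 array, which was the case for 29.3% of all named genes.

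At 0 h the polysomal signal was below the non-polysomal one in 29 genes, against 9.14% of all named genes, and above it in 0, against 34.7%. The median difference was -1.28, that of all probes was 0.15, and on 46 genes every p0 array lay below every np0 array, against 16.7% of all named genes. At 6 h the calls were 12 genes above, against 46.9%, and 3 below, against 5.7%, and these 3 were Rpl41, Rpl39 and Rpl35a, the last one at -1.00004 and so at the very limit. With scaling to the 75th percentile 0 genes were above and 21 below at 6 h, against 5058 and 9131 of 41171 probes. With quantile normalization 2 were above, against 6422 of 41171 probes. The median difference at 6 h was 0.49, against 0.68 for all probes. All p6 arrays lay above all np6 arrays on 31 genes, against 70.5% of all named genes, and below them on 9, against 10.6%.

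The direction at 6 h thus depended on how the arrays were scaled. The distance from the median of all probes depended on the processing too. At 0 h the median of the large-subunit genes lay 1.43 below that of all probes and at 6 h 0.19 below it. Quantile normalization gave 1.41 and 0.27, and a linear scaling on the spike-ins of each array gave 1.31 and 1.09. The normexp background correction gave 0.10 and 1.85, and 1.26 and 0.01 without spots of non-uniform background. With only the probes that were well above background on all arrays of some group, the distances were 2.10 and 0.67. Under the spike-in scaling 27 of the 48 genes lay below at 0 h and above at 6 h, each with an adjusted p below 0.05, which held for 2.42% of all named genes. Scaling to the 75th percentile left 5 such genes, quantile normalization 10 and the normexp correction 1. Without spots of non-uniform background the normexp correction left 25. Shares of all named genes were not counted under these other settings. Of the 10 spike-in transcripts, the 5 dimmer ones had M-values of -1.04 to -0.88 before scaling and the 5 brighter ones, at log2 18.29 to 19.07, of -0.26 to 0.03, so that no single constant per array fitted both.

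The M-value of the study sets the change in polysomal RNA against the change in non-polysomal RNA, (p6 - p0) - (np6 - np0). It was above 1 with a call in 42 of 48 genes, against 14.2% of all named genes and 12.1% of all probes, and below -1 in 0, against 1.18%. Quantile normalization gave 27 such genes, against 1268 of 41155 probes. The normexp correction gave 3, against 100 of 41155 probes, and 41 genes were above 1 there whatever their p. The median M-value was 1.76 with quartiles of 1.47 and 2.03, and the median over all probes was 0.49. This distance of 1.27 shrank to 0.26 with a linear scaling on the spike-ins of each array. There the median was 1.68 over the members and 1.42 over all probes, and 26102 of 41155 probes were called above 1. The dimmest spike-in lay at log2 7.82, above the all-probe medians of the arrays of 4.11 to 4.83. With the normexp correction the distance turned to -1.71, with a median over all probes of 3.20. That correction fitted a background SD of 100 or more on 2 arrays. Without spots of non-uniform background, an alternative chosen after seeing the data, it gave 1.24 and 42 called genes. Within the replicate numbers, each of which was also 1 slide, the median of the large-subunit genes was 1.80, 1.66 and 1.78, and that of all probes 0.41, 0.64 and 0.42. In 45 genes the M-value was above 0 in every replicate number. The share of all named genes was not counted, and the median over all probes was above 0 in each of them too. In 17 genes the M-value was above 2, again with a call, against 1.47% of all named genes.

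The study also asked for an order of the group means, with p6 above p0 and np6, and np0 above np6 and p0. The mean of p6 was above p0 in 48 genes, p0 was below np0 in 48, p6 was above np6 in 35 and np6 was below np0 in 10. All 4 orders held for 9 genes, and 5 of these, Rpl3, Rpl4, Rpl6, Rpl8 and Rpl10, had an M-value above 2. The smallest of the 4 counts was thus the one on the fall in non-polysomal RNA. Shares of all named genes that met these orders were not counted. The order of p6 and np6 also depended on the scaling. The median fraction difference at 6 h was -0.82 with scaling to the 75th percentile and -0.25 with quantile normalization. Of the 5 genes, Rpl6 alone stands in the study's list. That list also has Rpl7a, Rpl18 and Rpl27a. Rpl18 and Rpl27a had positive non-polysomal differences here (0.04 and 0.34). The M-value of Rpl7a was 1.56 on its brightest probe and 2.14 on a dimmer one. The reason for these departures was not tested.

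**Figure D2:**
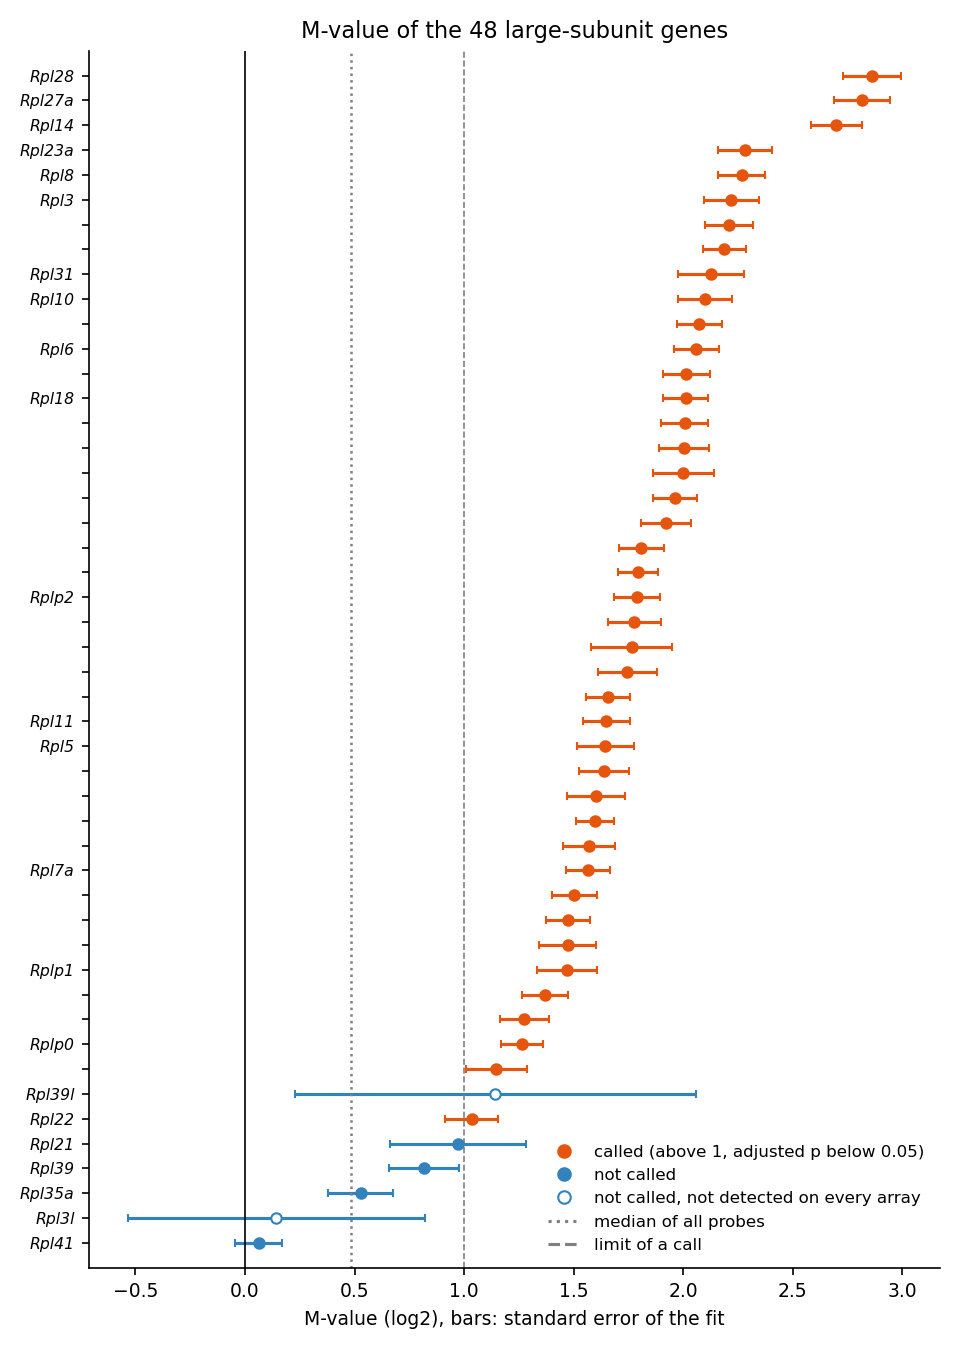
M-value on the log2 scale of each of the 48 large-subunit genes (brightest probe), with the standard error of the fit, sorted by value. Symbols are given for some of the genes. The dotted line marks the median of all probes (0.49) and the dashed line the limit of a call. Rpl28, Rpl27a and Rpl14 lie at 2.70 to 2.86, apart from the next gene at 2.28, and Rpl41 lies at 0.06.

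The largest M-value belonged to Rpl28 (transcript NM_009081), a protein of the large subunit found in eukaryotes alone. Its log2 signal was 15.91, 16.08 and 15.99 on the np0 arrays, 13.70, 13.94 and 13.77 on the p0 arrays, 16.39, 16.34 and 16.36 on the np6 arrays, and 16.92, 17.00 and 17.19 on the p6 arrays. All 4 groups were apart, p0 lowest and p6 highest. The rise in polysomes was 3.23 (9.38-fold, SE 0.093), the largest of the 48 genes, and the M-value was 2.86 (SE 0.13, adjusted p = 1.25e-06).

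Rpl27a (NM_011975) showed the same form. Its signal was 13.59, 13.72 and 13.76 on np0, 11.47, 11.60 and 11.71 on p0, 14.13, 13.97 and 13.98 on np6, and 14.70, 14.68 and 14.85 on p6. The groups did not overlap, and the rise in polysomes was 3.15 (8.89-fold) at an M-value of 2.82 (SE 0.13, adjusted p = 1.25e-06). For Rpl14 (NM_025974) the signal was 10.75, 10.88 and 10.76 on np0, 9.94, 10.22 and 10.03 on p0, 10.89, 10.86 and 10.82 on np6, and 12.84, 12.79 and 12.83 on p6. Its non-polysomal arrays overlapped between the times, with a difference of 0.06 (adjusted p = 0.68), while the polysomal arrays rose by 2.76 (6.76-fold), which gave an M-value of 2.70 (SE 0.12). Rpl28 and Rpl27a thus started far below their non-polysomal signal (-2.19 and -2.10 at 0 h), and Rpl14 started nearer to it (-0.73).

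Rpl31 (NM_053257), which lies at the rim of the exit tunnel, had the third largest rise in polysomes. Its signal was 11.59, 11.63 and 11.43 on np0, 9.39, 9.64 and 9.41 on p0, 12.38, 12.21 and 12.34 on np6, and 12.23, 12.35 and 12.53 on p6. The polysomal arrays rose by 2.89, the non-polysomal difference was 0.76 (adjusted p = 1.90e-04), and at 6 h the 2 fractions overlapped. The M-value was 2.13 (SE 0.15, adjusted p = 8.03e-06).

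Close to the peptidyl transferase centre lie Rpl3, Rpl8 and Rpl10, the last one a protein that joins the subunit late in the cytoplasm. For Rpl3 (NM_013762) the signal was 15.93, 15.99 and 15.92 on np0, 14.99, 15.30 and 15.10 on p0, 15.61, 15.71 and 15.54 on np6, and 16.98, 17.04 and 17.06 on p6. Rpl8 (NM_012053) read 16.30, 16.45 and 16.37 on np0, 15.85, 16.01 and 15.86 on p0, 16.13, 16.00 and 16.14 on np6, and 17.86, 17.88 and 17.93 on p6. Rpl10 (NM_052835) read 15.14, 15.27 and 15.21 on np0, 14.70, 14.85 and 14.93 on p0, 14.997, 15.15 and 15.13 on np6, and 16.75, 16.77 and 16.92 on p6. All 3 had their highest signal on the p6 arrays, and the non-polysomal arrays of Rpl10 alone overlapped between the times. The M-values were 2.22 (SE 0.12) for Rpl3, 2.27 (SE 0.11) for Rpl8 and 2.10 (SE 0.12) for Rpl10. At 6 h they were called above the non-polysomal fraction by 1.41, 1.80 and 1.72 under the spike-in scaling. Scaling to the 75th percentile lowers the fraction difference at 6 h by the same amount for every gene.

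Along the exit tunnel, through which the new chain leaves, and at its rim, Rpl4, Rpl17, Rpl19, Rpl23a, Rpl26, Rpl31, Rpl35 and Rpl39 were listed. All 8 rose in polysomes with a call, with a median of 2.19, and 7 of 8 had an M-value above 1 with a call, with a median of 1.81. The exception was Rpl39. Rpl23a (NM_207523), which offers a docking site to factors that meet the new chain, read 16.65, 16.54 and 16.59 on np0, 14.76, 14.86 and 14.75 on p0, 16.99, 17.04 and 16.93 on np6, and 17.43, 17.33 and 17.64 on p6. Its 4 groups were apart, with an M-value of 2.28 (SE 0.12), and the second probe of the gene gave 2.12.

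Rpl5 and Rpl11 bind the 5S rRNA and, outside the ribosome, are known to bind Mdm2. Rpl5 (NM_016980) read 16.29, 16.32 and 16.10 on np0, 15.38, 15.51 and 15.32 on p0, 16.29, 16.30 and 16.16 on np6, and 16.94, 17.12 and 17.11 on p6. Rpl11 (NM_025919) read 17.22, 17.13 and 17.21 on np0, 16.40, 16.62 and 16.53 on p0, 17.24, 17.20 and 17.20 on np6, and 18.12, 18.17 and 18.27 on p6. In both genes the non-polysomal arrays overlapped between 0 h and 6 h and the polysomal arrays did not. The polysomal rises were 1.66 and 1.67 (3.15-fold and 3.19-fold), the non-polysomal differences 0.01 and 0.02, and the M-values 1.64 (SE 0.13) and 1.65 (SE 0.11). With quantile normalization these were 0.71 and 0.77, below the limit of a call.

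Rplp0, Rplp1 and Rplp2 form the stalk that recruits elongation factors to the ribosome. Rplp0 (NM_007475) read 18.53, 18.56 and 18.53 on np0, 17.32, 17.51 and 17.46 on p0, 18.57, 18.60 and 18.63 on np6, and 18.74, 18.80 and 18.73 on p6. Rplp1 (NM_018853) read 18.52, 18.55 and 18.68 on np0, 16.80, 17.05 and 17.03 on p0, 18.63, 18.63 and 18.65 on np6, and 18.33, 18.52 and 18.60 on p6. Rplp2 (NM_026020) read 18.15, 18.09 and 18.13 on np0, 16.19, 16.40 and 16.38 on p0, 18.48, 18.45 and 18.51 on np6, and 18.42, 18.46 and 18.54 on p6. In each of them the p0 arrays stood apart below all others.

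The M-values of the stalk genes were 1.27 (SE 0.095), 1.47 (SE 0.14) and 1.79 (SE 0.10), each with a call. The calls of Rplp0 and Rplp1 ended with quantile normalization, at 0.67 and 0.60, and that of Rplp0 also with scaling to the 75th percentile, at 0.84, and with the brighter spike-ins alone, at 0.81. At 6 h their fraction differences were 0.16, -0.15 and -0.01, and none had an adjusted p below 0.05. A second, dimmer probe of Rplp0 rose by 1.94 in polysomes, against 1.32 for the brighter one, and had a fraction difference of -0.61 at 6 h with an M-value of 1.41. Of the 46 detected genes, 9 had a group mean above 18, among them the stalk genes. The brighter spike-ins, at log2 18.29 to 19.07, lie in that range. Before scaling their M-values were -0.26 to 0.03, against -1.04 to -0.88 for the dimmer ones. Whether differences between arrays are compressed at such signals was not tested.

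Rpl6, Rpl7a, Rpl18 and Rpl27a stand in the study's own list of raised transcripts, which was drawn from these arrays, so that their values are not independent evidence. Rpl6 (NM_011290) read 15.63, 15.73 and 15.71 on np0, 15.11, 15.22 and 15.24 on p0, 15.50, 15.41 and 15.44 on np6, and 16.94, 17.01 and 17.10 on p6. Rpl7a (NM_013721) read 17.65, 17.78 and 17.74 on np0, 17.40, 17.54 and 17.41 on p0, 17.57, 17.54 and 17.52 on np6, and 18.77, 18.91 and 18.82 on p6. Both had p6 above every other array and their other groups close together. Rpl18 (NM_009077) read 14.55, 14.68 and 14.61 on np0, 13.92, 14.05 and 13.86 on p0, 14.65, 14.65 and 14.66 on np6, and 15.95, 15.99 and 16.04 on p6, again with p6 highest. The M-values were 2.06 (SE 0.10) for Rpl6, 1.56 (SE 0.10) for Rpl7a and 2.01 (SE 0.10) for Rpl18. The 3 probes of Rpl7a gave 1.56, 1.77 and 2.14, the brightest probe the lowest value.

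Members that were low in polysomes at 0 h tended to be the lower ones at 6 h too. Over the 46 detected genes the fraction difference at 0 h and that at 6 h had a Pearson r of 0.85 and a Spearman rho of 0.82, given as a description since genes share arrays and each probe serves both times. The difference ranged from -3.66 to -0.17 at 0 h and from -3.60 to 1.97 at 6 h. Under the spike-in scaling 6 genes were lower in polysomal than in non-polysomal RNA at both times with an adjusted p below 0.05, against 8.88% of all named genes, namely Rpl41, Rpl39, Rpl35a, Rpl38, Rpl22 and Rpl37a, the last one at only -0.18 at 6 h. Scaling to the 75th percentile gave 36 such genes and quantile normalization 25, and shares of all named genes were not counted there.

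**Figure D3:**
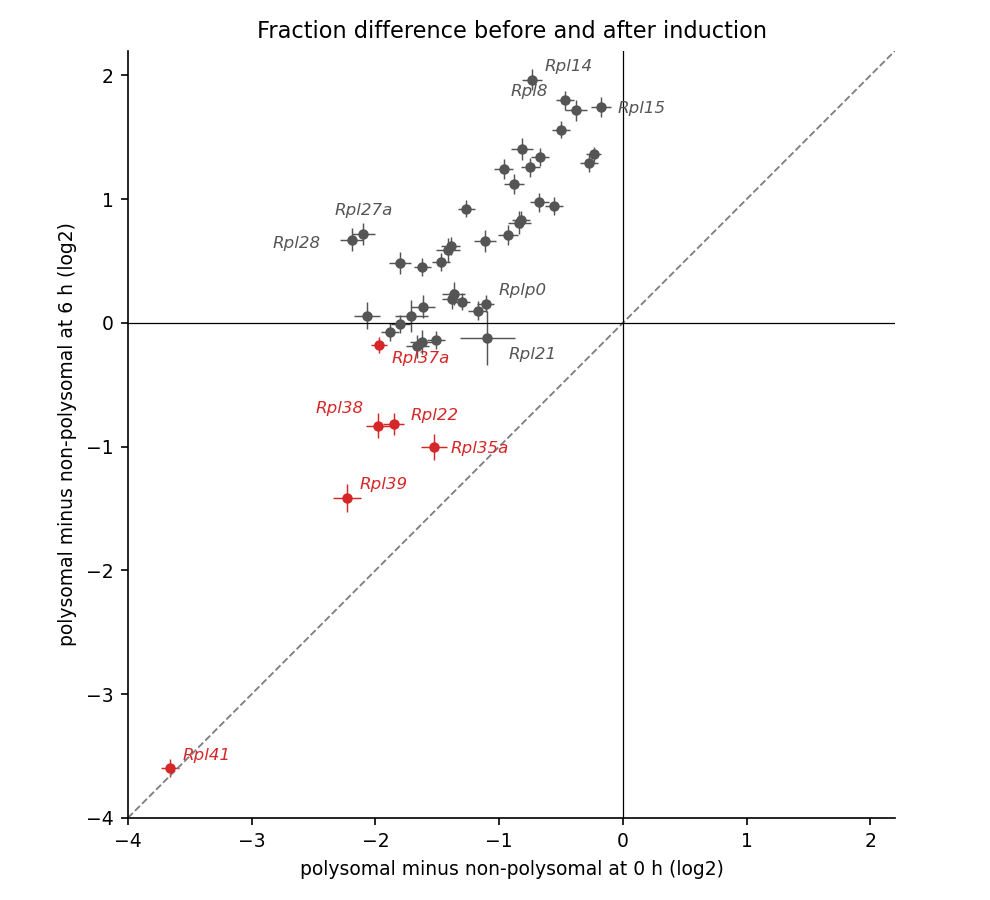
Polysomal minus non-polysomal log2 signal at 0 h (horizontal) and at 6 h (vertical) for the 46 detected genes, with standard errors of the fit. On the dashed line the difference was the same at both times, the height above it is the M-value, and red marks the 6 genes that were lower in polysomes at both times. Rpl41 lies on the line at -3.66 and -3.60, and the vertical position of all points depends on the scaling of the arrays.

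Rpl41, which codes for the shortest ribosomal protein, a basic peptide between the subunits, departed most from the pattern. Its signal (NM_018860) was 16.89, 16.98 and 16.92 on np0, 13.18, 13.41 and 13.23 on p0, 18.37, 18.34 and 18.33 on np6, and 14.70, 14.73 and 14.80 on p6. It was thus 12.6-fold lower in polysomal than in non-polysomal RNA at 0 h and 12.1-fold lower at 6 h. It rose by 1.41 in non-polysomal and by 1.48 in polysomal RNA, the former being the largest non-polysomal rise of all 48 genes. The M-value was 0.06 (SE 0.11, adjusted p = 0.66), and it turned to -0.36 with scaling to the 75th percentile and to -0.61 with quantile normalization, with adjusted p of 0.0029 and 7.58e-05. With the dimmer spike-ins alone it was 0.52 (adjusted p = 0.0022). Over all 28 alternatives its adjusted p ranged from 7.58e-05 to 0.98. A constant per array moves all genes equally, so that its distance of 1.69 from the median M-value does not depend on such a constant.

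Rpl39 lines the exit tunnel and is likewise a very small protein. It (NM_026055) read 16.18, 16.21 and 16.30 on np0, 13.80, 14.12 and 14.09 on p0, 17.43, 17.35 and 17.45 on np6, and 15.91, 15.88 and 16.21 on p6. Rpl35a (NM_021338), a gene mutated in some families with Diamond-Blackfan anaemia, read 14.95, 14.83 and 14.84 on np0, 13.12, 13.44 and 13.47 on p0, 16.02, 15.98 and 16.06 on np6, and 14.94, 14.96 and 15.16 on p6. In both genes the np6 arrays were the highest and the p0 arrays the lowest. The p6 arrays of Rpl39 overlapped with its np0 arrays, as did those of Rpl35a. Rpl39 rose by 2.00 in polysomal and by 1.18 in non-polysomal RNA (M-value 0.82, SE 0.16, adjusted p = 0.0030), and Rpl35a by 1.67 and 1.15 (0.53, SE 0.15, adjusted p = 0.020). The M-value of Rpl39 was 0.14 with quantile normalization, 0.36 with the brighter spike-ins alone and 0.50 with the normexp correction, with adjusted p of 0.38, 0.27 and 0.21, in a range of 3.89e-05 to 0.38 over all 28 alternatives. The M-value of Rpl35a was 0.11 with scaling to the 75th percentile and 0.04 with quantile normalization, with adjusted p of 0.55 and 0.84, in a range of 1.10e-04 to 0.88 over all 28 alternatives.

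Rpl38, a protein known from its role in the translation of certain Hox mRNAs, was added here after its values had been seen, as 1 of the 6 genes that were lower in polysomes at both times. It (NM_001048057) read 16.62, 16.91 and 16.90 on np0, 14.76, 14.92 and 14.82 on p0, 17.69, 17.65 and 17.78 on np6, and 16.77, 16.89 and 16.98 on p6. Its np0 and p6 arrays overlapped, and np6 was highest. The M-value was 1.15 (SE 0.14, adjusted p = 1.83e-04), which fell below 1 with scaling to the 75th percentile (0.72), the brighter spike-ins alone (0.69), quantile normalization (0.29) and the normexp correction (0.76), and its non-polysomal difference of 0.90 stayed below the limit of a call.

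Rpl22, an RNA-binding protein on the surface of the subunit that is known to be dispensable for general translation, differed between its 2 probes. The brighter probe (NM_009079) read 14.99, 15.09 and 15.01 on np0, 13.10, 13.35 and 13.08 on p0, 16.14, 16.07 and 16.06 on np6, and 15.20, 15.30 and 15.32 on p6. The dimmer probe of the same transcript read 12.79, 12.80 and 12.73 on np0, 10.31, 10.57 and 10.60 on p0, 13.48, 13.38 and 13.46 on np6, and 13.24, 13.25 and 13.39 on p6. The groups had the same order on both probes, with p0 lowest and np6 highest, except that p6 and np6 overlapped on the dimmer one. The M-value was 1.04 (SE 0.12, adjusted p = 1.49e-04) on the brighter and 2.13 (SE 0.13) on the dimmer probe. That of the brighter probe lay near the limit of a call and was below 1 under 9 of 28 alternatives, at 0.58 to 0.996.

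Rpl21 had the widest spread between probes. The brighter probe (NM_019647) read 13.31, 12.97 and 13.61 on np0, 12.59, 12.10 and 11.91 on p0, 12.65, 12.11 and 12.60 on np6, and 12.23, 12.42 and 12.35 on p6. The dimmer probe read 7.36, 7.23 and 7.11 on np0, 6.05, 6.14 and 6.33 on p0, 7.06, 6.99 and 7.05 on np6, and 8.75, 8.79 and 8.96 on p6. On the brighter probe the p0, np6 and p6 arrays overlapped, and on the dimmer one p6 was far above all others. The brighter probe had a non-polysomal difference of -0.84 (adjusted p = 0.011), the lowest of the detected genes, and its M-value was 0.97 (SE 0.31, adjusted p = 0.035). Over 28 alternatives the adjusted p of this M-value ranged from 2.26e-05 to 0.56 and was below 0.05 in 14, and leaving out any replicate number raised it above 0.05. The dimmer probe gave an M-value of 2.86 (SE 0.14), a polysomal rise of 2.66 and a non-polysomal difference of -0.20 (adjusted p = 0.14). Ribosomal protein genes have many processed pseudogenes, and which copies a probe binds was not tested.

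Of the 19 members with 2 to 4 probes, 17 had a call on every probe, and the M-values of a gene spanned 0.18 at the median. Over all 72 probes, 65 had an M-value above 1 with a call and 69 were well above background on all 12 arrays. Rpl21 and Rpl22 were the only members whose probes differed by more than 1, and Rpl39l was the other gene without a call on every probe.

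The paralogs Rpl3l and Rpl39l could not be measured in these cells. The probe of Rpl3l (NM_025425) read 2.02, 0.78 and 2.26 on np0, 1.09, 0.96 and 1.07 on p0, 2.63, 2.62 and 2.18 on np6, and 3.08, 1.52 and 1.33 on p6, and it was well above background on 0 of the 12 arrays. The brighter of 2 probes of Rpl39l (NM_026594) read 0.68, 0.80 and 3.56 on np0, 0.84, 0.98 and 0.49 on p0, 1.58, 0.71 and 0.89 on np6, and 1.21, 1.57 and 1.09 on p6, and it was well above background on 1 np0 array alone. The other probe of Rpl39l read 0.46 to 1.502 and was well above background on 0 of the 12. The lowest log2 signal rated well above background was 2.77 to 3.75 on an array, so that no fold is given for either gene. Their M-values were 0.14 (SE 0.68, adjusted p = 0.88) and 1.14 (SE 0.92, adjusted p = 0.33), and the array of Rpl39l at 3.56 carried most of the latter. The main copies Rpl3 and Rpl39 were well above background on all 12 arrays.

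**Figure D4:**
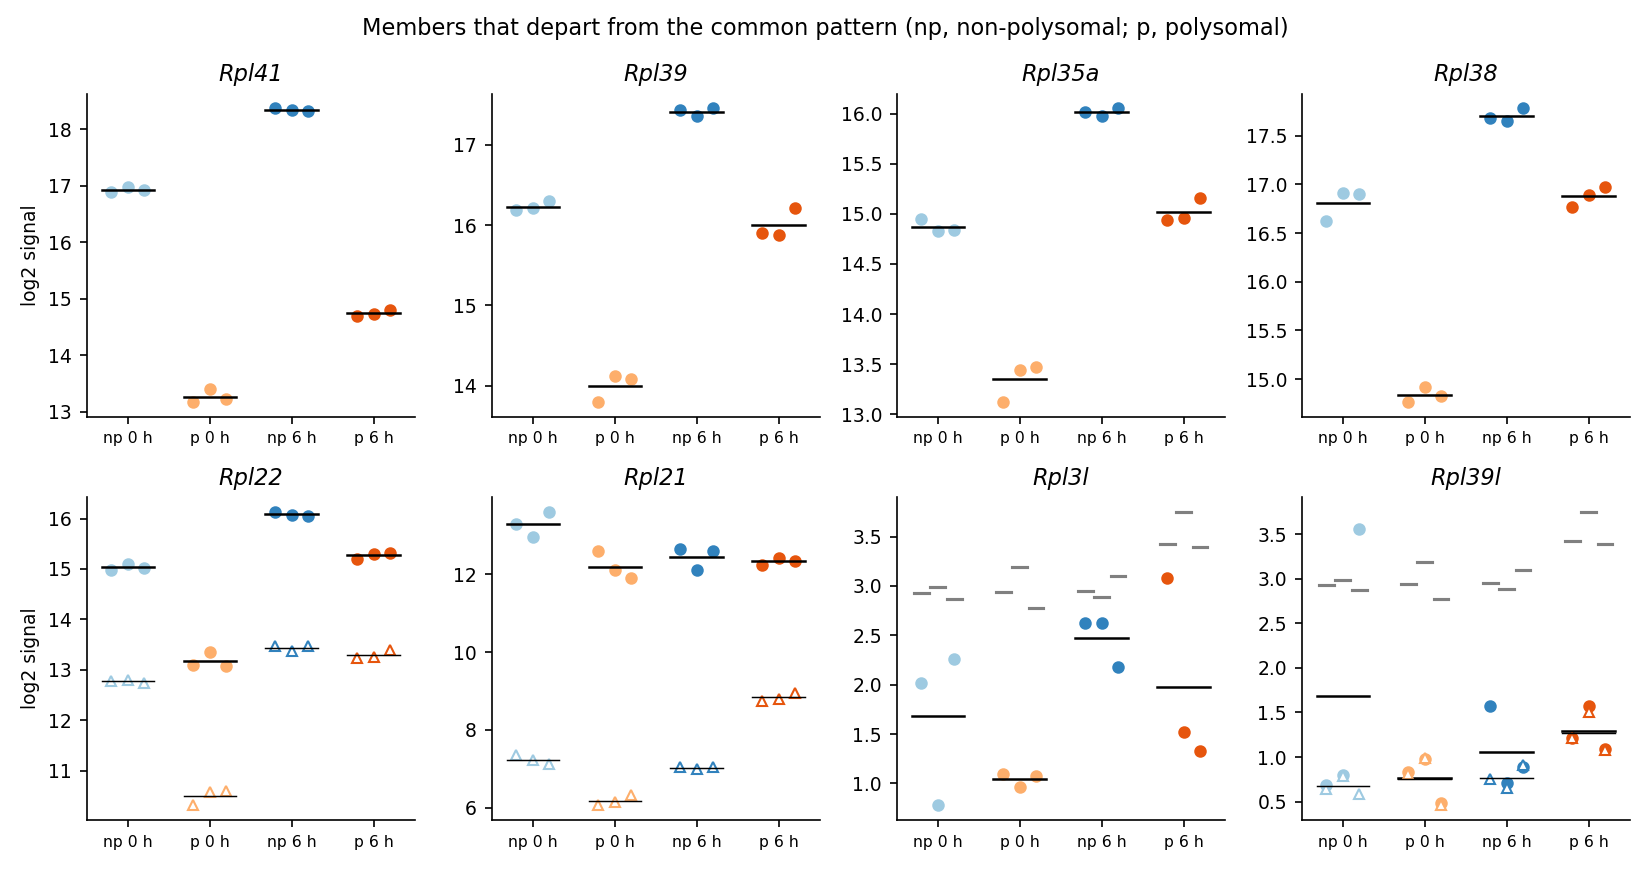
Log2 signal of 8 members on the 3 arrays of each group (np, non-polysomal; p, polysomal), with a bar at the mean; the vertical axes differ between panels. Circles are the brightest probe, open triangles a second probe, and grey dashes in the Rpl3l and Rpl39l panels the lowest signal rated well above background on that array. The np6 arrays are the highest in Rpl41, Rpl39, Rpl35a, Rpl38 and Rpl22, and the signals of the 2 paralogs lie below the dashes on all but 1 array.

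Genes close to the large-subunit group were set beside it. Of 30 small-subunit genes 29 had an M-value above 1 with a call, the median was 1.70 and the median difference over time in polysomes 2.16, against 1.76 and 2.04 for the large-subunit genes. The exception was Rps27l, a paralog of Rps27, with -0.38 (SE 0.10), a fraction difference of -2.85 at 0 h and of -3.23 at 6 h. Rps29, a very small protein of the small subunit, had fraction differences of -3.24 and -2.13 and an M-value of 1.11. Among related genes outside the naming rule, Rpl36al had a call at an M-value of 1.55 and Rpl22l1 at 1.76, and Rpl7l1 was at 0.33 (adjusted p = 0.051).

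Mitochondrial large-subunit proteins, which build a separate ribosome from mRNAs translated in the cytosol, had calls in 13 of 49 genes and a median M-value of 0.77. Their median fraction difference was 0.59 at 0 h, against -1.28 for the cytosolic members. Of 32 factors that assemble or export the large subunit, 10 had an M-value above 1 with a call and 1, Mdn1, was below -1 at -1.34 (SE 0.13), and their median was 0.67. Their median differences over time were 1.62 in polysomal and 1.11 in non-polysomal RNA, and at 0 h their polysomal signal was above the non-polysomal one by a median of 1.85. Rises were called for 25 of the 32 in polysomal and for 18 in non-polysomal RNA. No difference between these lists and the large-subunit genes was tested.

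The M-values of members with and without a tract at the listed start overlapped. Among members that were well above background on all 12 arrays, the median was 1.62 over 16 genes with a tract (range 0.53 to 2.86) and 1.79 over 18 genes without one (range 0.06 to 2.21). The 3 highest M-values among genes with an entry, of Rpl28, Rpl27a and Rpl14, belonged to genes with marked tracts of 10, 20 and 10 bases. In Rpl14 the run of pyrimidines began upstream of the marked part. Rpl35a, with a marked tract of 13 bases, had 0.53. Rpl41, with the lowest M-value, had no tract at its listed start. These are descriptions of annotated starts and were not tested.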

How the data were processed

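RNA of 12 samples (3T3-L1, 4 groups by time and gradient pool, 3 biological replicates each per the study's methods) was measured on one-color Agilent arrays. The deposited scanner files (Agilent Feature Extraction 10.7.1.1) hold intensity values per spot, background-subtracted and detrended within the array but not normalized between arrays. The authors also deposited log2 values. Tested against the scanner files, these were the median pixel of each spot on the log2 scale, averaged per probe and shifted by 1 constant per array, and they served as an alternative. Per the labels groups were assigned by time and fraction.

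The background-subtracted intensities were taken to log2 without 94 to 221 outlier spots per array (484 missing values), and spots of a probe were averaged. The mean over 10 spike-in transcripts (median of 32 spots each) was centred over the arrays and subtracted. The 4 groups were fitted together in R 4.3.3 with limma 3.58.1 (lmFit, eBayes, 8 residual degrees of freedom), adjusted over 41155 probes with an M-value. An exact permutation test of 3 arrays against 3 cannot give a p below 0.1 and was not used. Symbols were found for 18754 of 32839 transcript accessions (26690 probes, 64.8%) through a RefSeq table of GRCm38.p6, whereas the array design names mm9, so that no gene coordinates are given besides those of the printed sequences. Precision is limited by the number of arrays. The median SE of a member's M-value was 0.11. Each slide held 1 replicate of every group.

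The members and lists were chosen with earlier results of these data known. Values by array are given for the 6 highest and 6 lowest M-values, the main copies and paralogs Rpl3, Rpl3l, Rpl10, Rpl39 and Rpl39l, the stalk, the 5S particle, the members the study lists, the 3 largest rises and falls per fraction and members whose probes differ by more than 1. Values of single genes that are withheld are not reported here. In simulated data of 40808 probes, 100 were given an M-value of size 1.5 and 100 one of size 2.5. An adjusted p below 0.05, with no limit on size, was found for 56% and 71% of these. All had the right sign, and 2 unchanged probes passed too. Only 200 probes were changed there, whereas 12.1% of all probes were called above 1 in the data. The shares thus do not give the sensitivity of the calls in the text. In all, 28 alternatives were run. The normexp correction used median pixel intensities, as mean ones were not used here, with an offset of 50.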

Additional observations from a re-analysis of the deposited data

Results flagged for a closer look

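Of the 48 large-subunit genes, 42 had an M-value that passed 1 and an adjusted p below 0.05 in limma. Their change over 6 h thus differed between the polysomal and the non-polysomal fraction by a test of that difference. Of all named genes, 14.2% passed the same limits. The count of 42 fell to 27 with quantile normalization and to 3 with the normexp correction. Without spots of non-uniform background the normexp correction gave 42. Under the spike-in scaling 27 genes had a lower polysomal signal at 0 h and a higher one at 6 h. Each difference had an adjusted p below 0.05. Both held for 2.42% of all named genes. The count of 27 genes rests on the direction at 6 h. The median of that difference turned negative with scaling to the 75th percentile, which left 5 such genes.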

How the results depend on the processing

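Of 140 recomputed counts over the members, 131 stayed within 1.5 times the main one. This share says little about scaling, since 15 of the 28 alternatives left out arrays of the same scaled data. The 9 counts that moved all came from alternatives that changed the scaling or the background correction. Leaving out single arrays or a replicate number gave 41 to 43 genes with an M-value above 1, 45 to 45 higher at 6 h in polysomal and 4 to 5 in non-polysomal RNA, 28 to 30 lower in polysomes at 0 h and 12 to 13 higher at 6 h. Quantile normalization gave 27 genes with an M-value above 1, against 1268 of 41155 probes. In polysomal RNA 21 genes were higher at 6 h, against 3204 of 41173, and in non-polysomal RNA 1, against 3356 of 41156. At 6 h 2 genes were higher in polysomes, against 6422 of 41171 probes. Scaling to the 75th percentile gave 48 genes lower in polysomes at 0 h, against 10979 of 41158 probes. At 6 h it gave 0 higher, against 5058 of 41171, and 21 lower, against 9131. The brighter and the dimmer spike-ins alone gave 6 and 22 higher at 6 h, against 11754 and 20227 of 41171 probes. The normexp correction gave 3 genes with an M-value above 1 and an adjusted p below 0.05, against 100 of 41155 probes. Whatever their p, 41 were above 1, and the median of the 48 genes was 1.49. Its fitted background SD was 100 or more on 2 arrays. Without spots of non-uniform background, an alternative that like the dimmer spike-ins was chosen after seeing the data, the correction gave 42, against 2516 of 41155 probes.

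The median at 6 h between fractions turned to -0.82 (75th percentile) and -0.25 (quantile). The distance of the members' median from that of all probes turned with normexp to -1.71 (M-value) and -0.28 (polysomal), and was -1.85 for the fractions at 6 h. Without spots of non-uniform background normexp gave 1.24, 1.54 and -0.01 for the same distances. Linear scaling on the spike-ins gave 0.26 (M-value), 0.60 (polysomal) and -1.09 (fractions at 6 h), and quantile normalization turned it to -0.00051 (non-polysomal). Rpl41 turned to -0.36 (75th percentile), -0.61 (quantile), -0.39 (brighter spike-ins) and -0.18 (normexp), and was 0.52 (adjusted p = 0.0022) with the dimmer spike-ins. Rpl3l, which was not detected, turned to -0.28, -0.44 and -0.31 with the first 3 of these, and ranged from -0.47 to 0.86 when arrays or a replicate number were left out. The cause was not tested.

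Deviations of arrays with the same replicate number correlated at -0.050 to 0.15, so that the numbers were not taken as pairs. The replicate block left 42 genes with an M-value above 1. The probes of Rpl3l and Rpl39l lie at background.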
